A study of Homo sapiens with 3 samples.

Results

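The clade B serpins described here are 9 genes, SERPINB1, SERPINB3, SERPINB4, SERPINB5, SERPINB6, SERPINB7, SERPINB8, SERPINB9 and SERPINB13, taken by symbol from a table of 57773 rows. SERPINB2, a further clade B gene, was left out of the set and is given only beside its neighbours. Expression was measured by RNA sequencing in 3 lines derived from HaCaT keratinocytes, human skin cells that became immortal without a viral oncogene, and each line was sequenced once. All 3 lines express oncogenic HRAS (G12V). On top of it, the first line carried THG-1 with a serine-to-alanine change (S264A), the second wild-type THG-1 (WT) and the third an empty vector. THG-1 is the product of TSC22D4, a leucine zipper protein of the TSC22 family, and the title of the series links it to IL-1 and NF-kB signalling. The labels do not say whether a line was a pool or a clone, and cells were grown in DMEM with fetal bovine serum.

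Serpins are proteins that trap proteases. Most present an exposed reactive loop as bait, and once the loop is cut the protease is carried across the serpin and locked in a distorted, inactive complex. Clade B members lack a classical signal peptide and work mainly inside cells, where they guard the cytoplasm against proteases that leak from granules and lysosomes or are taken up from neighbours. Stratified epithelia express many of them, and loss of SERPINB7 or SERPINB8 in people causes disorders of the outer skin layers. The genes stand in a pair of clusters, on human chromosomes 6 and 18.

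Expression is given in RPKM, reads scaled by gene length in kilobases and by the reads of the library, so that genes can be compared within a library. The depth behind the values was 14022885 reads in the S264A library, 12733479 in the WT library and 32055052 in the empty-vector library. With 1 library per line there is no spread between replicates. Intervals in parentheses are exact 95% intervals that cover counting error only, no p-value is given, and a difference between lines cannot be told apart from one between cultures. TSC22D4 stood at 51.1 RPKM in the S264A line, 64.9 RPKM in the WT line and 7.98 RPKM in the empty-vector line. All 15 keratinocyte markers examined were above 1 RPKM in every library, with summed levels of 1668, 1650 and 1269 RPKM in S264A, WT and empty vector. Of 10 fibroblast, 7 melanocyte and 5 endothelial markers, no more than 1 per list reached 1 RPKM in a library.

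Among the 9 members SERPINB5 had the highest level in all 3 lines. SERPINB2, left out of the set, stood above it in WT, at 248 RPKM against 78.8 RPKM. SERPINB5 encodes maspin, which has the serpin fold but does not act as a protease inhibitor, and it held 41.6% of the summed RPKM of the 9 members in S264A, 42.2% in WT and 47.2% with empty vector. The sum itself was 130 RPKM in S264A, 187 RPKM in WT and 144 RPKM with empty vector. In S264A the order below SERPINB5 (54.0 RPKM) was SERPINB13, SERPINB6, SERPINB1, SERPINB7, SERPINB8, SERPINB3, SERPINB4 and SERPINB9. The counting intervals of SERPINB13 and SERPINB6 overlapped there, and so did those of SERPINB8 and SERPINB3. In the WT line SERPINB1 stood in the second place, ahead of SERPINB13, SERPINB6 and SERPINB7, while with empty vector it came after SERPINB5, SERPINB13 and SERPINB6. In WT the interval of SERPINB6 overlapped with those of SERPINB13 and SERPINB7, and the intervals of SERPINB3 and SERPINB4 overlapped in both WT and empty vector. Of the 9 members, 8 reached 1 RPKM in at least 1 library.

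**Figure D1:**
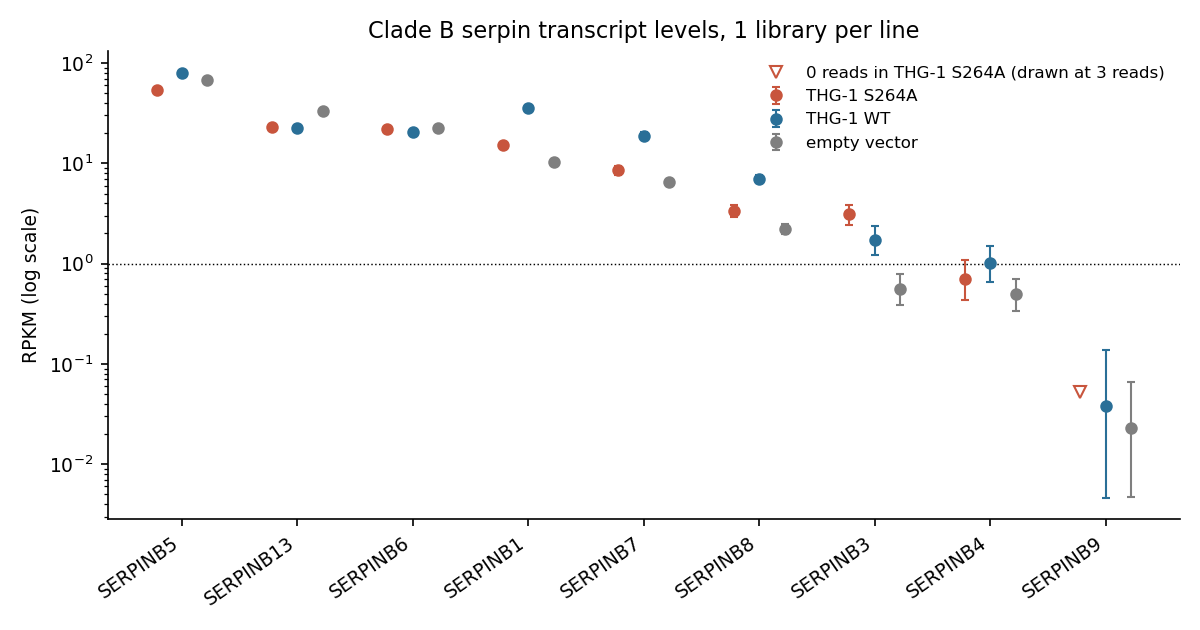
RPKM of each member on a log axis, in S264A (red), WT (blue) and empty vector (grey), 1 library each. Bars are exact 95% counting intervals, the dotted line is 1 RPKM, and the open triangle marks SERPINB9 in S264A, which had 0 reads and is drawn at the level of 3 reads. SERPINB1, SERPINB7 and SERPINB8 have the same order of lines, with WT above S264A and S264A above empty vector.

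SERPINB1, SERPINB7 and SERPINB8 had their highest level in the WT line and stood about 3-fold above empty vector there. SERPINB1 encodes an inhibitor of neutrophil elastase, cathepsin G and proteinase 3, the serine proteases of neutrophil granules. It was at 15.1 RPKM in S264A (684 reads), 36 RPKM in WT (1479 reads) and 10.4 RPKM with empty vector (1073 reads). For SERPINB1, SERPINB6, SERPINB7 and SERPINB8 the gene length used by the authors is unknown, so that their reads, and the intervals built on them, rest on the smallest length that gave whole reads. The WT level was 3.47 times that of empty vector (3.21 to 3.76), the S264A level 1.46 times (1.32 to 1.61), and S264A held 0.420 times the WT level (0.383 to 0.460). The 3 lines thus had separate intervals, with S264A nearer to empty vector than to WT.

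SERPINB7, whose product is known as megsin, was at 8.49 RPKM in S264A, 18.8 RPKM in WT and 6.47 RPKM with empty vector. WT stood 2.91-fold above empty vector (2.58 to 3.27) and S264A 1.31-fold above it (1.14 to 1.51). The ratio of S264A to WT was 0.452 (0.393 to 0.519). SERPINB8 encodes an inhibitor of furin, the proprotein convertase of the secretory pathway. Its level was 3.33 RPKM in S264A, 7.0 RPKM in WT and 2.21 RPKM with empty vector, with ratios of 3.17 (2.72 to 3.69) for WT over empty vector and 1.5 (1.25 to 1.80) for S264A over empty vector. S264A held 0.475 times the WT level (0.399 to 0.564). For these 3 genes no counting interval of 1 line touched that of another.

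**Figure D2:**
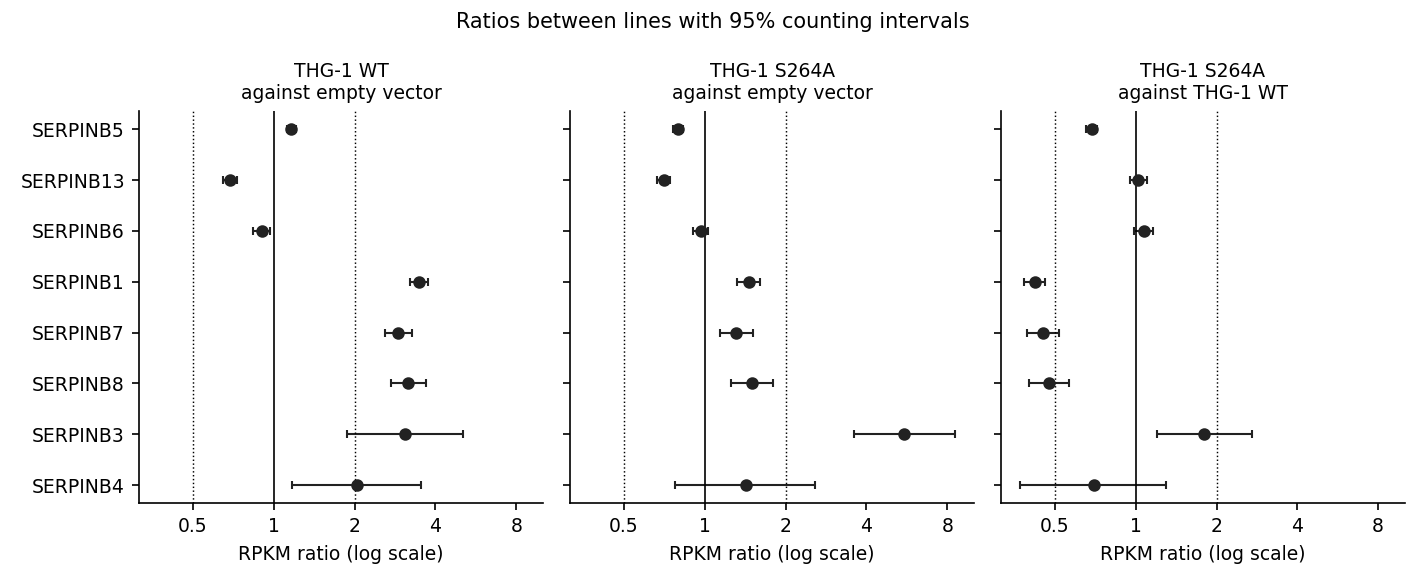
Ratio of RPKM between lines for the 8 members above the floor, on a log axis, with exact 95% counting intervals; 1 panel per comparison, 1 library per line. The solid line is a ratio of 1 and the dotted lines are 0.5 and 2. SERPINB1, SERPINB8, SERPINB3, SERPINB7 and SERPINB4 lie right of 2 in the panel of WT over empty vector, SERPINB1, SERPINB7 and SERPINB8 lie left of 0.5 in that of S264A over WT, and SERPINB3 lies farthest right in that of S264A over empty vector.

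The promoters of SERPINB7 and SERPINB8 are shown because these members had the same order of lines and their windows hold matches to an AP-1 or NF-kB motif. Each window runs from 250 bases before to 50 bases after a start site (RefSeq, GRCh38.p14, plus strand), and all 9 members had at least 1 window. Capitals mark matches, on either strand, to the AP-1 motif TGANTCA or, in the first sequence, to the NF-kB consensus. The windows are chr18:63752807-63753106 and chr18:63775168-63775467 for the first and second start sites of SERPINB7, and chr18:63969831-63970130 for SERPINB8.
SERPINB7, first start site: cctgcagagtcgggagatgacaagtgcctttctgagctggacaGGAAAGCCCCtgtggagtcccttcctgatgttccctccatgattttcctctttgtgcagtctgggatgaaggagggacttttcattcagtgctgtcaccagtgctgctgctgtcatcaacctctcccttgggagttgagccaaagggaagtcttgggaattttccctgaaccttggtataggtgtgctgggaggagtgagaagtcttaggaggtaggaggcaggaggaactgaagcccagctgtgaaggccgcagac
SERPINB7, second start site: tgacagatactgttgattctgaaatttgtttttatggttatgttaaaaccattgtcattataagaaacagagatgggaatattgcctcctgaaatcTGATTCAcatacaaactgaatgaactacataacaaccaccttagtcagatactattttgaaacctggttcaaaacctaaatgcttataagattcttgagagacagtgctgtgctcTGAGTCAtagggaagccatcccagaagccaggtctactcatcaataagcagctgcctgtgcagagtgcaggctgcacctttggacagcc
SERPINB8: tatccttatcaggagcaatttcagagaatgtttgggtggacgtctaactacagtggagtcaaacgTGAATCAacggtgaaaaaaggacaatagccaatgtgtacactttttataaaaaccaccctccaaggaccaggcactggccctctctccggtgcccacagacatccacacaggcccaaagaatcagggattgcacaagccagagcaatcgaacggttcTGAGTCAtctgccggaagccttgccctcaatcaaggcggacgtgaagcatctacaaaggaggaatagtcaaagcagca
Among the 14 windows of the 9 members, 5 held an AP-1 match, and they belonged to 4 genes, SERPINB5, SERPINB7, SERPINB8 and SERPINB13. Of 35116 promoter windows of this length, 7.71% held one. The NF-kB consensus, of 10 letters, was found in 1 member window, the first of SERPINB7, and in 11.3% of all windows. The third window of SERPINB7, not shown, held 2 AP-1 matches. The single SERPINB1 window held neither motif, and its levels ran in the same order as those of SERPINB7 and SERPINB8. The windows of SERPINB5 and SERPINB13 held AP-1 matches, and their levels ran otherwise. Whether these motifs have a part in the levels was not tested. A match is a run of letters and does not show that a factor binds there.

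SERPINB3 and SERPINB4, the squamous cell carcinoma antigens, were low in HaCaT cells. SERPINB3 inhibits cysteine proteases of the lysosome such as cathepsins L, K and S, whereas SERPINB4 inhibits cathepsin G and mast cell chymase, which are serine proteases. Both genes are near copies of each other. Their coding sequences were identical at 1117 of 1173 bases (95.2%), while the other 35 pairs of members shared between 53.1% and 73.2% of aligned bases (transcripts of GENCODE release 29). The stretch of 60 bases in which they differ most is printed, with the differing bases in capitals, since it shows what keeps their reads apart. It covers bases 952 to 1011 of the coding sequence, toward its 3′ end, and holds 10 of the 56 differences.
SERPINB3: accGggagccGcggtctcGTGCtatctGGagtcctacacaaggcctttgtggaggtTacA
SERPINB4: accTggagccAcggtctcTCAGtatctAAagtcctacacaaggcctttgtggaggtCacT
Over the coding sequence, 23.1% of the SERPINB3 windows of 50 bases and 9.92% of those of 75 bases were also found in SERPINB4 transcripts. Neither the read length nor the handling of reads that fit both copies is stated in the labels. The values of both genes are therefore uncertain to that extent.

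The copies also share their promoters, which are shown for that reason. The windows (RefSeq, GRCh38.p14, minus strand) lie at chr18:63661844-63662143 for SERPINB3 and at chr18:63644207-63644506 for SERPINB4. They were identical at 296 of 300 bases (98.7%), and capitals mark the 4 that differ.
SERPINB3: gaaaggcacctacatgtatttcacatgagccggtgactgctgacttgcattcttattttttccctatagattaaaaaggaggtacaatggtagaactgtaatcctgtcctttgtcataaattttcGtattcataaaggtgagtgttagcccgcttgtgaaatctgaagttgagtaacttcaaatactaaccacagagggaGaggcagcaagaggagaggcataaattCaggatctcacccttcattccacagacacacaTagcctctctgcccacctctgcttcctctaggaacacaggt
SERPINB4: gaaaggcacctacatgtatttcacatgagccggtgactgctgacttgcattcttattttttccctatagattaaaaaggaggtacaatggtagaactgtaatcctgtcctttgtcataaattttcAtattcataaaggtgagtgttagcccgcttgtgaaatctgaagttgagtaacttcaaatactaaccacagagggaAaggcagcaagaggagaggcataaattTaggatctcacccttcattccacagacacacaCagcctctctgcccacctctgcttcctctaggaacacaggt
Neither window held an AP-1 or NF-kB match.

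In spite of this likeness the pair did not keep a fixed ratio across the lines. SERPINB3 was at 3.09 RPKM in S264A (77 reads), 1.72 RPKM in WT (39 reads) and 0.562 RPKM with empty vector (32 reads). It was the member with the highest ratio of S264A to empty vector, 5.50 (3.60 to 8.59), and the only one of the 9 with an S264A level above that of WT beyond its counting interval, with a ratio of 1.79 (1.20 to 2.71). WT stood 3.07-fold above empty vector (1.87 to 5.06). SERPINB4 was at 0.709 RPKM in S264A (20 reads), 1.01 RPKM in WT (26 reads) and 0.496 RPKM with empty vector (32 reads). Its ratio of WT to empty vector was 2.05 (1.17 to 3.54), and the intervals of S264A over empty vector (1.43, 0.774 to 2.58) and S264A over WT (0.699, 0.370 to 1.3) included 1.

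SERPINB3 contributed 79.4% of the reads of the pair in S264A (70.0% to 86.9%), 60% in WT (47.1% to 72.0%) and 50% with empty vector (37.2% to 62.8%). The interval of S264A did not overlap with that of empty vector, and that of WT overlapped with both. With the RPKM of the 2 genes added, to allow for exchanged reads, the pair stood at 3.80 RPKM in S264A, 2.74 RPKM in WT and 1.06 RPKM with empty vector. The sum was thus 3.59-fold higher in S264A and 2.59-fold higher in WT than with empty vector.

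**Figure D3:**
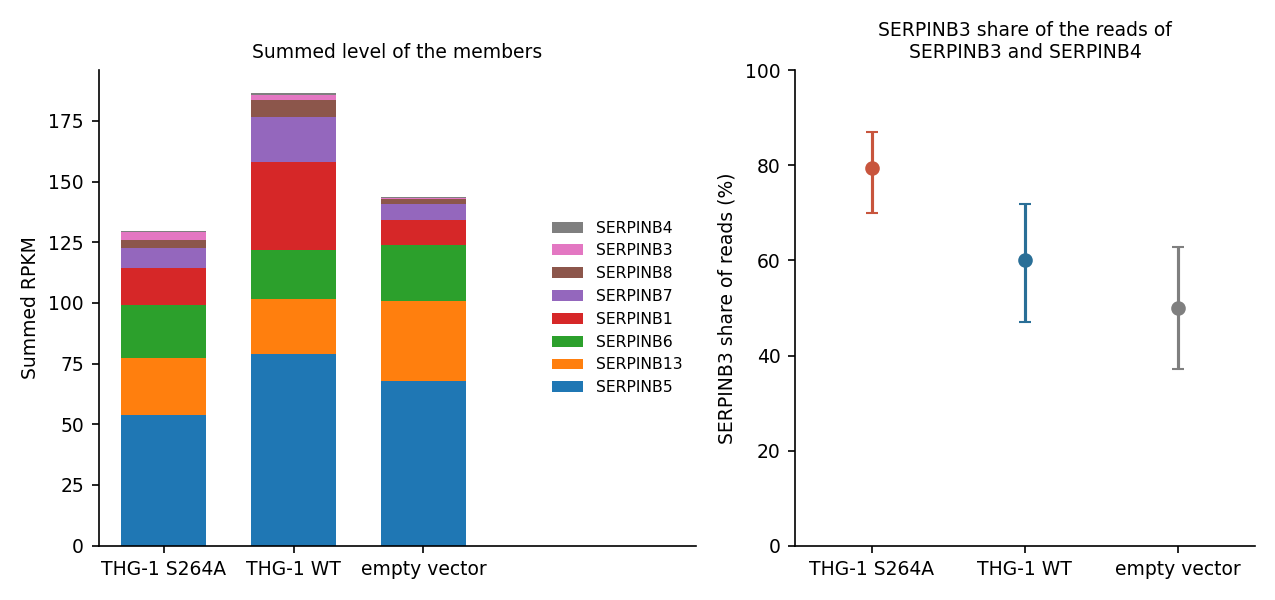
Left, summed RPKM of the members in S264A, WT and empty vector, stacked by gene, with SERPINB9 left out since it was below 0.04 RPKM. Right, share of SERPINB3 among the reads of SERPINB3 and SERPINB4 in each library, with exact Clopper-Pearson 95% intervals. The sum is largest in WT, where SERPINB1 makes up 19.3% of it, and the SERPINB3 share is 79.4% in S264A, 60% in WT and 50% with empty vector.

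SERPINB13 encodes headpin, also called hurpin, an inhibitor of cathepsins L and K that is expressed in squamous epithelium. It was the 1 member whose ratio to empty vector lay below 1 beyond its counting interval in both THG-1 lines. It stood at 23.2 RPKM in S264A (1476 reads), 22.7 RPKM in WT (1311 reads) and 33.1 RPKM with empty vector (4805 reads). The ratio to empty vector was 0.702 (0.662 to 0.745) for S264A and 0.687 (0.646 to 0.730) for WT. S264A and WT had overlapping intervals and a ratio of 1.02 (0.948 to 1.10). SERPINB13 and SERPINB3, which inhibit overlapping sets of cathepsins, thus differed from empty vector in opposite directions in both THG-1 lines.

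SERPINB5 was at 54.0 RPKM in S264A, 78.8 RPKM in WT and 67.9 RPKM with empty vector. S264A held 0.794 times the level of empty vector (0.762 to 0.828) and 0.685 times that of WT (0.653 to 0.718). WT stood 1.16-fold above empty vector (1.12 to 1.20), a log2 difference of 0.21 that became -0.05 with upper-quartile scaling of the libraries. SERPINB6, which encodes an inhibitor of cathepsin G and trypsin-like proteases, was at 21.9 RPKM in S264A, 20.5 RPKM in WT and 22.7 RPKM with empty vector. Its log2 difference between WT and empty vector was -0.14, and -0.39 with upper-quartile scaling. Its ratios were 0.965 for S264A over empty vector (0.902 to 1.03), 0.902 for WT over empty vector (0.839 to 0.968) and 1.07 for S264A over WT (0.984 to 1.16).

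SERPINB9 encodes the granzyme B inhibitor of cytotoxic lymphocytes and of cells exposed to them. It had 0 reads in S264A, where 3 reads would stand at 0.0520 RPKM, 2 reads in WT and 3 reads with empty vector. No fold is given for it. SERPINB1 is also a gene of leukocytes, so that immune markers stand beside its values. Of 12 such markers CD68, which epithelial cells also express, alone reached 1 RPKM. The markers summed to 2.16 RPKM in S264A, 5.52 RPKM in WT and 1.21 RPKM with empty vector. Of the 12, 4 were at 0 in S264A, 6 in WT and 7 with empty vector, and NKG7, FCGR3A and MPO were at 0 in all 3. PTPRC and CD3E were at 0 in WT, where CD14, LYZ, CD163, ITGAM and GNLY had between 1 and 4 reads each. CD68 had the order of lines of SERPINB1, at 1.70 RPKM in S264A, 5.21 RPKM in WT and 0.941 RPKM with empty vector, and was called higher in WT than with empty vector and lower in S264A than in WT by the rule for calls given further on. Whether other cells had a part in the SERPINB1 values was not tested. The RNA came from whole cultures, in which fewer cells that express a gene and less RNA per cell cannot be told apart.

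For counts over many genes, differences were taken as log2((RPKM + 1)/(RPKM + 1)), which understates the change of low genes, among genes that reached 1 RPKM in either line. A difference of at least 2-fold on that scale was called. For WT against empty vector 3 members were called higher, SERPINB1 (1.70), SERPINB7 (1.41) and SERPINB8 (1.32), and 0 lower. Among the 11993 genes compared, 4.53% were called higher and 1.54% lower, which became 3.10% and 2.66% with upper-quartile scaling and 3.54% and 2.07% with scaling to an equal sum. At 1.5-fold 4 members were higher, with SERPINB3 added, and 0 lower, where 11.0% of genes were higher and 6.72% lower. SERPINB3 was at 0.80 on this scale, SERPINB4 at 0.43, SERPINB5 at 0.21, SERPINB6 at -0.14 and SERPINB13 at -0.52. The median of all 9 members was 0.43, or 0.62 over the 8 that were compared, and that of all genes compared -0.01.

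For S264A against empty vector SERPINB3 (1.39) was called higher and no member lower, where 2.99% of 12010 genes were called higher and 0.824% lower (2.04% and 1.26% with upper-quartile scaling). SERPINB3 was not called with a pseudocount of 5 RPKM (0.54). At 1.5-fold SERPINB3 was again the 1 member beyond the threshold, where 8.56% of genes were higher and 3.97% lower. SERPINB1 stood at 0.50, SERPINB8 at 0.43, SERPINB7 at 0.35, SERPINB6 at -0.05, SERPINB5 at -0.33 and SERPINB13 at -0.49. The median of all 9 members was 0.19, or 0.35 over the 7 compared, and that of all genes compared 0.02. Both comparisons share the empty-vector library.

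For S264A against WT SERPINB1 (-1.20) and SERPINB7 (-1.06) were called lower and 0 members higher, where 2.23% of 12069 genes were called lower and 1.55% higher. With scaling to an equal sum these shares were 1.74% lower and 1.79% higher, so that their order turned. SERPINB8 was at -0.89, under the rule although its plain ratio was below 0.5, and SERPINB3 at 0.59. At 1.5-fold 3 members were lower, with SERPINB8 added, and 1 was higher (SERPINB3), where 7.13% of genes were lower and 6.65% higher. SERPINB7 was not called in the authors' normalised columns (-0.997), with upper-quartile scaling (-0.995), with scaling to an equal sum (-0.95) or with a pseudocount of 5 RPKM (-0.82). The median of all 9 members was -0.24, or -0.39 over the 8 compared, and that of all genes compared 0.02. The WT library is shared with the comparison of WT against empty vector. The calls of SERPINB1 and SERPINB7 in both are therefore not separate observations.

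**Figure D4:**
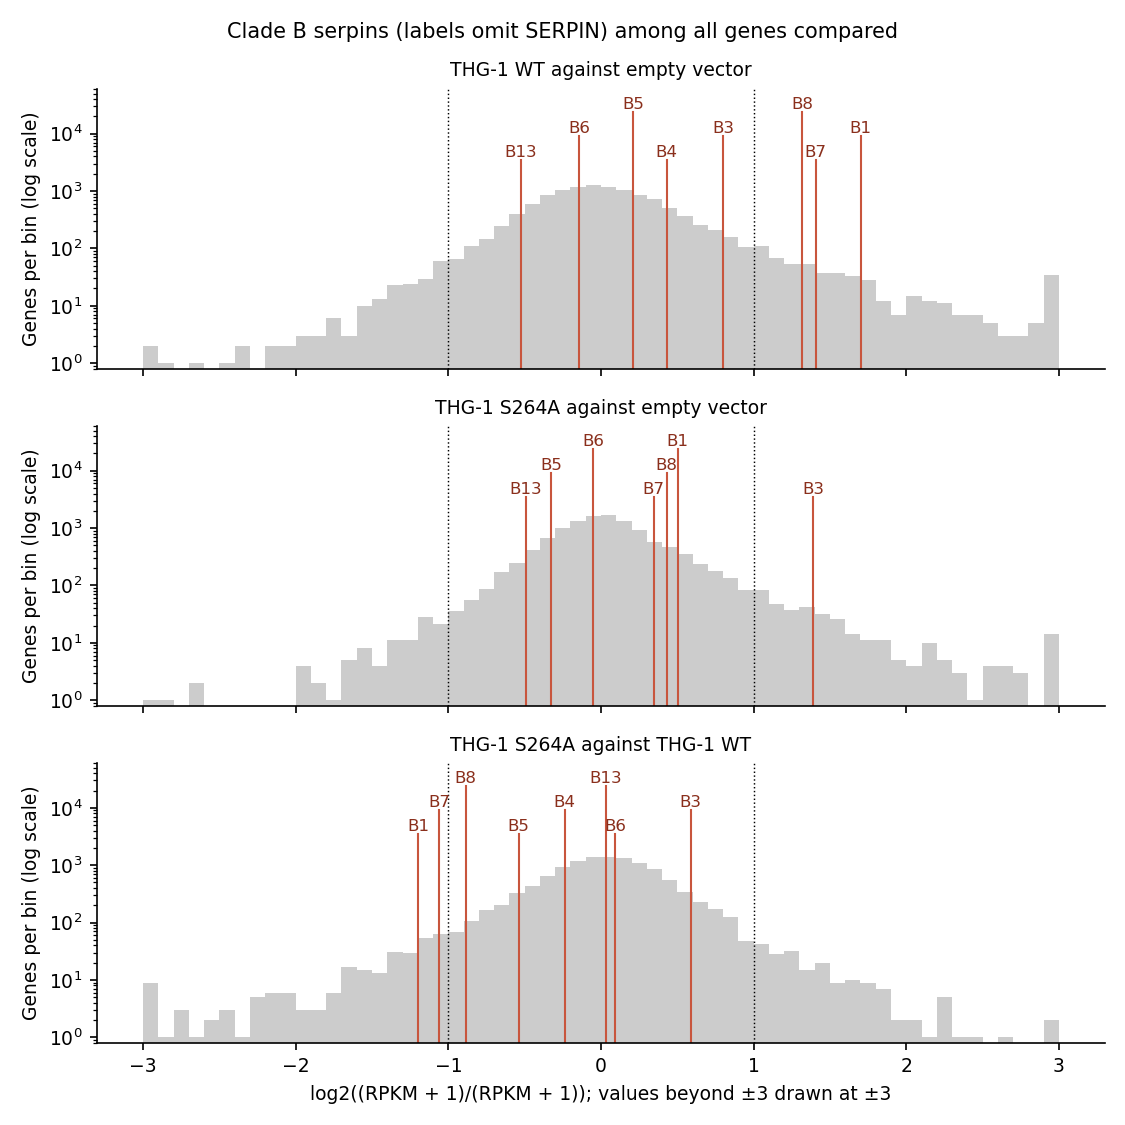
Distribution of log2 differences over all genes compared (grey, number per bin of 0.1 on a log axis), with members drawn as red lines labelled without the prefix SERPIN; 1 panel per comparison, 1 library per line. Dotted lines mark 2-fold. In WT against empty vector B1, B7 and B8 lie beyond the right dotted line, in S264A against empty vector B3 does, and in S264A against WT B1 and B7 lie beyond the left one.

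By cluster, SERPINB1, SERPINB9 and SERPINB6 are neighbours on chromosome 6 and the other 6 members lie on chromosome 18, in the gene order of RefSeq. Only SERPINB1 of the chromosome 6 members was called in a comparison. The 4 neighbours of this cluster that were compared, WRNIP1, NQO2, RIPK1 and BPHL, differed by -0.14 to 0.25 on the log2 scale between WT and empty vector, against 1.70 for SERPINB1. On chromosome 18 the members called higher in WT than with empty vector, SERPINB7 and SERPINB8, are separated by SERPINB2, SERPINB10 and HMSD. SERPINB2, which encodes plasminogen activator inhibitor type 2, was at 43.1 RPKM in S264A, 248 RPKM in WT and 13.7 RPKM with empty vector. On the RPKM + 1 scale its difference from empty vector exceeded that of each of the 9 members in both THG-1 lines, while the plain ratio of S264A to empty vector was 3.15 for SERPINB2 and 5.50 for SERPINB3. SERPINB10 was below 0.3 RPKM in every library and HMSD at 1.14 RPKM in S264A, 0.786 RPKM in WT and 0.812 RPKM with empty vector. SERPINB11 had 0 reads in all 3 libraries and SERPINB12 had 3, 0 and 1 reads in S264A, WT and empty vector. Among the neighbours DSEL, beyond SERPINB8, was called lower in both THG-1 lines, at 0.397 RPKM in S264A, 0.239 RPKM in WT and 1.88 RPKM with empty vector.

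At the other end of that cluster SERPINB5 and its flanking genes had like differences. VPS4B, which encodes an ATPase of the ESCRT machinery, was at 11.6 RPKM in S264A, 17.9 RPKM in WT and 15.1 RPKM with empty vector. KDSR, an enzyme of sphingolipid synthesis, was at 4.63 RPKM in S264A, 7.48 RPKM in WT and 6.49 RPKM with empty vector. S264A against WT was -0.59 for VPS4B, -0.59 for KDSR and -0.54 for SERPINB5, and S264A against empty vector was -0.35, -0.41 and -0.33 in the same order. None of these reached 2-fold. The next expressed gene inside the cluster, SERPINB13, differed by 0.03 between S264A and WT and by -0.49 between S264A and empty vector.

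**Figure D5:**
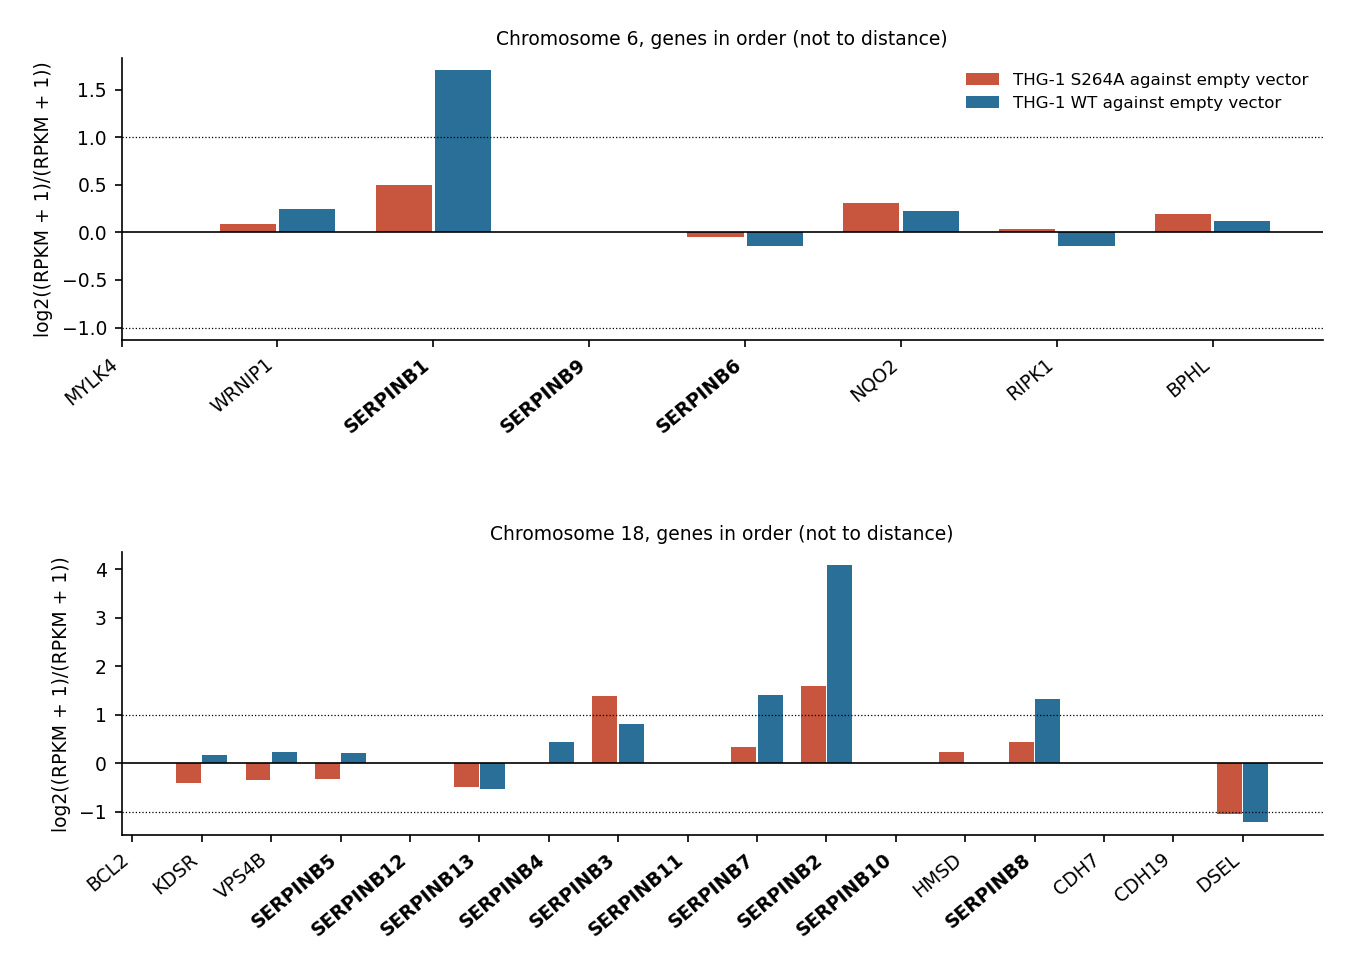
Log2 differences on the RPKM + 1 scale, S264A over empty vector (red) and WT over empty vector (blue), for genes of each cluster in chromosome order and for protein-coding neighbours up to 3 on each side. Clade B serpins are in bold, genes below 1 RPKM have no bar, dotted lines mark 2-fold, and 1 library stands behind each line. On chromosome 6 SERPINB1 stands above its neighbours, and on chromosome 18 SERPINB7, SERPINB2 and SERPINB8 have the tallest WT bars.

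Genes with the nearest pattern to the 3 members of widest range were sought among 12379 genes, by the distance between their pairs of log2 differences from empty vector. For SERPINB1 they were HSH2D, CD68 and the NF-kB subunit gene RELB, which was at 1.95 RPKM in S264A, 5.54 RPKM in WT and 1.02 RPKM with empty vector. For SERPINB7 they were the kinase gene MAP3K8, the cytidine deaminase gene APOBEC3F and ERRFI1, which encodes an inhibitor of the EGF receptor. For SERPINB3 they were FGFBP1, TMEM139 and the zinc transporter gene SLC39A2, and FGFBP1, a carrier of fibroblast growth factors, was at 207 RPKM in S264A, 139 RPKM in WT and 80.4 RPKM with empty vector. Likeness over 3 libraries rests on 2 differences that share the empty-vector library.

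Proteases listed as targets were read beside the serpins, and no member is named here as an inhibitor of KLK7 or KLK8. Of 15 target genes listed, 6 were compared between WT and empty vector, and 2 of them, KLK7 and KLK8, were called higher, where 4.53% of all genes were. KLK7, a protease of corneocyte shedding, was at 7.21 RPKM in S264A, 16.8 RPKM in WT and 1.85 RPKM with empty vector. KLK8 was at 10.4 RPKM in S264A, 16.1 RPKM in WT and 6.61 RPKM with empty vector. FURIN, the target of SERPINB8, was at 28.2 RPKM in S264A, 49.5 RPKM in WT and 28.0 RPKM with empty vector, 1.77-fold higher in WT than with empty vector (1.69 to 1.85). The cathepsin gene CTSL, whose product SERPINB3 and SERPINB13 inhibit, was at 15.4 RPKM in S264A, 14.0 RPKM in WT and 13.1 RPKM with empty vector. CTSS, a further cathepsin target of SERPINB3, was low, at 0.742 RPKM in S264A, 1.06 RPKM in WT and 0.155 RPKM with empty vector, with plain ratios to empty vector of 4.79 for S264A (2.79 to 8.48) and 6.83 for WT (4.08 to 11.9). CTSK was at 0.378 RPKM in S264A, 0.666 RPKM in WT and 0.298 RPKM with empty vector (10, 16 and 18 reads), with a ratio of WT to empty vector of 2.24 (1.07 to 4.65). Neither was called. KLK7 was also the 1 target called in S264A against empty vector, where it was higher, and in S264A against WT, where it was lower. Of all genes, 2.99% were called higher in the former comparison and 2.23% lower in the latter.

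Other protease inhibitors of the epidermis were read beside the serpins. Of 12 compared between WT and empty vector, CSTB, SLPI, PI3, TFPI2, WFDC2 and ECM1 were called higher and SPINK5 lower, where 4.53% of all genes were higher and 1.54% lower (3.10% and 2.66% with upper-quartile scaling). SLPI, a secreted inhibitor of neutrophil elastase and cathepsin G, was at 60.4 RPKM in S264A, 131 RPKM in WT and 25.1 RPKM with empty vector. SPINK5, which encodes the kallikrein inhibitor LEKTI, was at 5.99 RPKM in S264A, 3.12 RPKM in WT and 10.04 RPKM with empty vector. In S264A against empty vector 5 of 12 were called higher (CST3, SLPI, PI3, A2ML1 and WFDC2) and 0 lower, where 2.99% and 0.824% of all genes were. In S264A against WT 3 of 12 were called lower (SLPI, PI3 and TFPI2) and 0 higher, where 2.23% and 1.55% of all genes were.

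Of the squamous differentiation genes, 9 of 16 were called higher in WT against empty vector, where 4.53% of all genes were, and 10 of 17 in S264A against empty vector, where 2.99% were. In S264A against WT 3 of 17 were called higher and 1 lower, beside 1.55% and 2.23% of all genes. The list was chosen with results of these data known, and its counts are a description. The 3 higher in S264A than in WT were KRT1, SPRR1A and KRT4, and the lower one was SPRR2A. SPRR1A, a precursor of the cornified envelope, was at 11.4 RPKM in S264A, 3.64 RPKM in WT and 1.16 RPKM with empty vector, the same order of lines as SERPINB3. Involucrin (IVL) had that order as well, at 15.3 RPKM in S264A, 11.5 RPKM in WT and 2.77 RPKM with empty vector. Other genes of the list were highest in WT, as SERPINB1 was. KRT10, a keratin of the suprabasal layers, was at 17.5 RPKM in S264A, 32.1 RPKM in WT and 5.68 RPKM with empty vector. SPRR2A was at 4.83 RPKM in S264A, 37.2 RPKM in WT and 0.616 RPKM with empty vector, and KLK5 at 49.2 RPKM in S264A, 71.4 RPKM in WT and 1.13 RPKM with empty vector. TGM1, a transglutaminase of the cornified envelope, was below empty vector in both THG-1 lines, at 4.85 RPKM in S264A, 2.90 RPKM in WT and 6.08 RPKM with empty vector, and was not called.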

How the data were processed

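RNA of 3 HaCaT lines, 1 library each, was sequenced by the authors, and groups follow the sample titles. Per the file headers and from the values, the deposited table holds RPKM and, in a second column per library, RPKM quantile-normalised by the authors across the 3 libraries, which was used as an alternative. The submitters' processing notes name hg19 as the build. Not given in the sources used here: aligner, counting program, annotation, library selection and strand.

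Depths were derived from single-exon genes with their GENCODE 29 lengths, in which 1 read is the commonest count. Whole reads within 0.001 were then recovered for 99.99% of 25998 rows above 0, with the GENCODE length where it gave whole reads (5 of the 9 members) and otherwise the smallest length that did (SERPINB1, SERPINB6, SERPINB7 and SERPINB8), which can understate the reads and widen intervals. The reading of depths and the recovery of reads were tested on simulated data with the true lengths supplied. The choice of the smallest length was therefore not tested. The fold rule was also tested on simulated data. Intervals are exact Poisson (levels) and Clopper-Pearson (ratios and shares) at 95%. Reads are not independent molecules. Fold calls used log2 of RPKM + 1, a filter of 1 RPKM and a threshold of 2-fold. Where a symbol had several rows the highest was kept, leaving 55773 symbols. No test across genes was possible, and 3 comparisons were made.

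All 9 members are named. Genes of other lists are named when called or as targets of a member, and the 3 nearest in pattern for the 3 members of widest range. Neighbours in the clusters are named by position. FURIN, CTSL, CTSS, CTSK, TGM1, SERPINE2, SERPINH1 and the immune markers were named after their values were seen, and some genes of the lists are not reported here. The members and lists were chosen with earlier results of these data known. Promoters come from RefSeq (GRCh38.p14), and builds were not mixed. Software comprised Python 3.11.15, NumPy 2.4.6, pandas 2.3.3, SciPy 1.17.1 and Biopython 1.88.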

Additional observations from a re-analysis of the deposited data

How the results depend on the processing

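For the members, 23 differences were recomputed under other pseudocounts, filters and scalings and with SERPINB3 and SERPINB4 added, giving 179 values. Another pseudocount or filter cannot turn a direction, so that only the scalings, the authors' normalised columns and the added pair could do so. Of the 179 values, 177 kept their direction, which for many of them was thus fixed beforehand. The exceptions were SERPINB5 in WT against empty vector (0.21, and -0.05 with upper-quartile scaling) and SERPINB4 in S264A against WT (-0.24, and 0.36 when added to SERPINB3). Of the 179 values, 35 lay outside the counting interval of the main difference. With upper-quartile scaling, for instance, SERPINB1 in WT against empty vector went from 1.70 to 1.45 and SERPINB13 from -0.52 to -0.77. The number of members called lower in S264A against WT was 1, against 2, with a pseudocount of 5 RPKM, in the authors' normalised columns, with upper-quartile scaling and with equal-sum scaling, and SERPINB1 was the 1 left. With a pseudocount of 0.1 RPKM 3 members were lower in S264A against WT (SERPINB8 added), where 4.29% of genes were, against 2.23%. At that setting 4 members, with SERPINB3 added, were higher in WT against empty vector, where 7.25% of genes were, against 4.53%. In S264A against WT the number called higher was 1 (SERPINB3) with a 1.5-fold threshold, against 0. The share of all genes called higher was 6.65% with that threshold, against 1.55%. The number called higher in S264A against empty vector was 0, against 1, with a pseudocount of 5 RPKM and with a filter at 5 RPKM, which SERPINB3 did not reach. The 3 members called higher in WT against empty vector were called under each scaling and filter, while with a pseudocount of 5 RPKM SERPINB8 was not (0.73). Upper-quartile scaling moved the median of all genes to -0.22 for WT and -0.15 for S264A against empty vector, where the member medians were 0.64 and 0.16, each over 7 genes. Equal-sum scaling moved it to -0.14 for WT against empty vector and 0.11 for S264A against WT. The share of called genes that were higher was 74.6% for WT against empty vector, 53.8% with upper-quartile and 63.1% with equal-sum scaling. It was 78.4% and, with upper-quartile scaling, 61.8% for S264A against empty vector, and for S264A against WT 41.0%, with 44.8% under upper-quartile scaling, 49.6% with a pseudocount of 0.1 RPKM and 50.6% under equal-sum scaling. No paired analysis was possible because each line has 1 library. Depth limits SERPINB3, SERPINB4 and SERPINB9, which had under 80 reads in each library.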

Other observations

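Serpins of other clades, which are mostly secreted, were largely silent in these cells, with 4 of 22 compared between WT and empty vector. SERPINH1, the collagen chaperone HSP47, was at 34.2 RPKM in S264A, 30.0 RPKM in WT and 33.8 RPKM with empty vector, and SERPINE2 at 2.5 RPKM in S264A, 2.51 RPKM in WT and 2.84 RPKM with empty vector.

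Of 13 cathepsin genes 9 were compared between WT and empty vector and 0 were called in either direction. In S264A against WT 1 of 9 was called lower, beside 2.23% of all genes. It was CTSC, which encodes the dipeptidyl peptidase that activates granule serine proteases. CTSC was at 3.98 RPKM in S264A, 10.3 RPKM in WT and 6.63 RPKM with empty vector, so that S264A lay below and WT above empty vector.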
